A study of Mus musculus with 7 samples.

Results

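Genes of the resting chloride conductance, the sodium channel and the sodium pump were read in quadriceps muscle of 3-month-old mice, on 7 single-colour Agilent mouse arrays. The members are Clcn1, Scn4a, Scn4b, Atp1b1, Atp1b2 and Fxyd1, taken as every probe that is not a control and whose gene name, or current symbol by RefSeq accession, is one of these. The rule itself uses no measured value and found 6 probes among 39429, 1 for each of the 6 genes, of 28669 gene names on the array. Probes were kept where 3 or more of the 7 arrays showed them well above background, which left 21002, and each member was well above background on all 7.

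The study asked which muscle transcripts had changed in a mouse model of spinal and bulbar muscular atrophy (SBMA) before its motor symptoms. WT mice gave 4 arrays and AR113Q mice gave 3, all of C57BL/6 strain, and the legends count each array as a separate mouse. AR113Q mice carry a humanized androgen receptor gene with an expanded CAG tract, knocked into the mouse locus, so the receptor is made wherever the endogenous gene is active and not in muscle alone. The labels and legends call the controls WT, whereas the results text describes knock-in animals carrying a shorter tract, and these arrays do not settle which they were. Since 1 array stands for each mouse, the p-values below measure the spread between these mice.

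Skeletal muscle repolarizes with the help of an unusually high resting chloride conductance, most of which is carried by the channel that Clcn1 encodes. Its loss gives myotonia, in which fibers fire repeatedly and relax slowly. Action potentials start when the sodium channel built around the Scn4a subunit opens, and the sodium pump afterwards exports sodium and takes up potassium, so that fibers stay excitable during repeated contraction. The pump needs a beta subunit to fold and to reach the membrane, and FXYD proteins bind to it and tune its affinity for sodium.

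The chloride channel gene, 1 auxiliary subunit of the sodium channel and both pump beta subunits among the members were lower in AR113Q muscle. Clcn1 fell to 17.7% of its WT level, Atp1b1 to 17.9%, Scn4b to 31.6% and Atp1b2 to 37.9%. The order of these falls depended on the reading of the spots: with the submitters' normalized values the log2 fold change of Clcn1 was -1.34, a smaller fall than for Atp1b1 (-1.96) and Scn4b (-1.62). The pore-forming Scn4a stood at 85.3% and the pump regulator Fxyd1 at 114% of WT, and neither passed the test. In RNA of whole muscle, fewer cells of a type and less RNA per cell cannot be told apart. A probe was called at an adjusted p of at most 0.05 in limma, adjusted over all 21002 kept probes, together with a log2 fold change of 1 or more in either direction. By this rule 4 of 6 members were called, all of them lower in AR113Q, where 24.8% of all kept probes were called and 12.6% were called lower. These percentages stand beside the members' count as a description, because the 6 genes were picked with earlier results of these arrays known. They also depend on the reading of the spots: the same 4 members were called with normexp background correction, the submitters' normalized values and the mean spot intensity, where 9.94%, 8.56% and 10.8% of all probes were called.

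Upstream sequence is shown for the 3 lower members that have a window in the RefSeq promoter table, because they could be searched for the same motifs. Each window is the 250 bases before the annotated start on GRCm38.p6, printed along the gene's own strand. Capitals mark E-boxes (CANNTG), which myogenic factors bind, the MEF2 box, and the androgen and glucocorticoid receptor half-site (TGTTCT), all searched on both strands.
Clcn1, chr6:42286435-42286684, plus strand: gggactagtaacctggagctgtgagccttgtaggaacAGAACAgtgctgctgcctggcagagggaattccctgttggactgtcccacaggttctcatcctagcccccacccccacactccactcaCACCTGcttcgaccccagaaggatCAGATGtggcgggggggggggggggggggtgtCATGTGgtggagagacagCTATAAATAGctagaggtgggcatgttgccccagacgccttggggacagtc
Scn4b, chr9:45138374-45138623, plus strand: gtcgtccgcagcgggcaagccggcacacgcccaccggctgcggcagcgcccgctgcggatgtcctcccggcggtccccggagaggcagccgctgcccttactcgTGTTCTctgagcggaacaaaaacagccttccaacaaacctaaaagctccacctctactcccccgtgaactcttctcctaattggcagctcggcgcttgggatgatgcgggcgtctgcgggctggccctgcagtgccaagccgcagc
Atp1b1, chr1:164458356-164458605, minus strand: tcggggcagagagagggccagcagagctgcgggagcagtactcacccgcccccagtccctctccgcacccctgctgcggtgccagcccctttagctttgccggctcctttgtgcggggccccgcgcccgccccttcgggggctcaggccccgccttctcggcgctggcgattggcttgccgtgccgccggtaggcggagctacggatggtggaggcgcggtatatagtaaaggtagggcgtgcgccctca

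The Clcn1 window held 3 E-boxes, which begin 125, 101 and 69 bases before the start, 1 MEF2 box that begins 51 bases before it, and 1 half-site at 213 bases. No 2 of these matches overlapped. The Scn4b window held 1 half-site, 146 bases before the start, and neither of the other motifs. No match was found for any of the 3 motifs in the windows of Atp1b1, Scn4a and Fxyd1, which says only that these letters are not in the window. Among 32851 windows of the same length, 66.2% held an E-box, 0.508% a MEF2 box and 16.1% a half-site. The windows of Clcn1, Scn4b and Atp1b1 were 60.0%, 66.0% and 70.4% G and C, against a median of 52.4% over all windows. A match describes the sequence, and binding was not measured here.

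**Figure D1:**
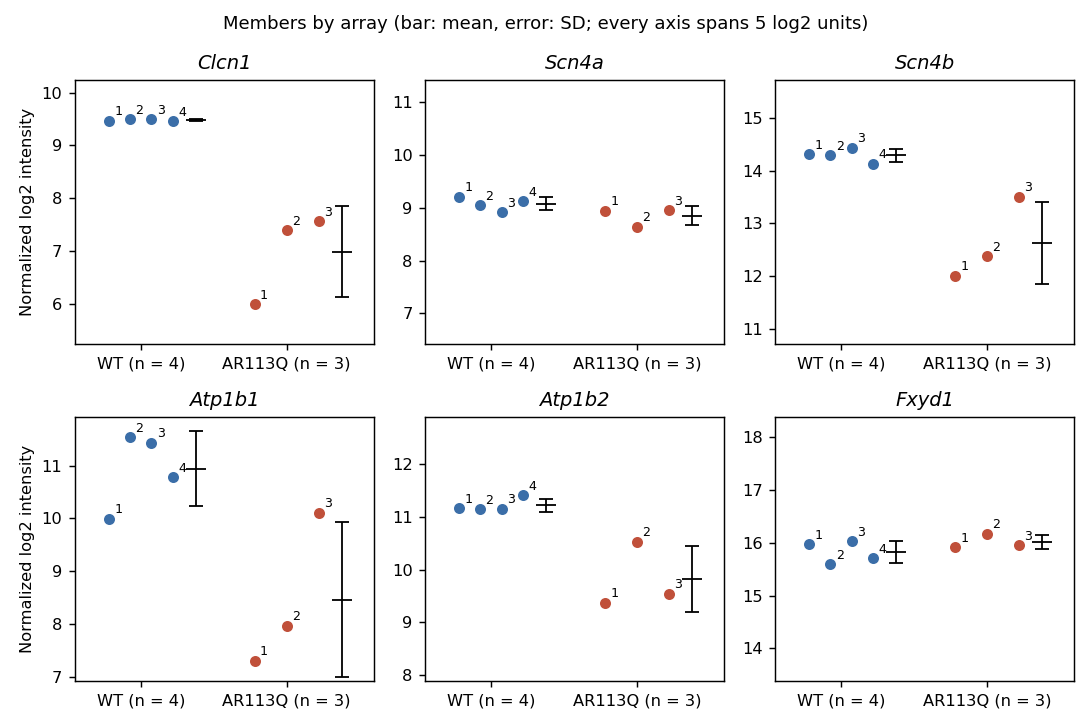
Normalized log2 intensity of each member on every array, with WT in blue and AR113Q in red, the replicate number beside each point, and the mean with its SD (n = 4 and n = 3) to the right. Every vertical axis spans the same number of log2 units but starts at a different level. Clcn1, Scn4b and Atp1b2 show no overlap between genotypes, Atp1b1 overlaps narrowly, and Scn4a and Fxyd1 overlap.

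Clcn1 encodes the voltage-gated chloride channel of the fiber membrane. Its probe lies at chr6:42264558-42264617 on the plus strand (mm9). In WT replicates 1 to 4 its normalized log2 intensity was 9.47, 9.50, 9.49 and 9.46, and in AR113Q replicates 1 to 3 it was 5.99, 7.39 and 7.57. The genotypes did not overlap, and the highest AR113Q array lay 1.89 log2 units under the lowest WT array. The WT mean was 9.48 ± 0.02 (SD, n = 4) and the AR113Q mean 6.98 ± 0.86 (SD, n = 3), so the AR113Q arrays differed from each other far more than the WT arrays did. The log2 fold change was -2.50 (SE 0.35, adjusted p = 0.00107), with a 95% interval of -3.30 to -1.69. Only 1.95% of the kept probes had a lower log2 fold change.

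The size of the Clcn1 change depended on how the spots were read, although it was called each time. It was -1.34 with the submitters' normalized values, -1.62 with normexp background correction and -1.72 with the mean spot intensity, an alternative chosen after the data were examined. Before subtraction the Clcn1 spot averaged 137, 238 and 232 on the AR113Q arrays and 449 to 567 on the WT arrays, over a local background of 29 to 42. The WT arrays spanned 0.040 log2 units in the values used here and more in the submitters' log2 values, which ran from 9.26 to 9.49. In the gene table of GRCm38.p6 Clcn1 overlaps Fam131b and Gm38797, and whether their transcripts reach the probe was not tested.

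Scn4b encodes the beta4 subunit, a single-pass protein that sits beside the channel pore and shapes its gating. The probe lies at chr9:44962045-44962104 on the plus strand (mm9). WT replicates 1 to 4 gave log2 intensities of 14.31, 14.30, 14.43 and 14.13, and AR113Q replicates 1 to 3 gave 12.01, 12.37 and 13.50. All AR113Q arrays were under all WT arrays, with a gap of 0.62, and AR113Q replicate 3 was the closest to WT. As a share of the WT mean, the AR113Q arrays stood at 20.6%, 26.4% and 57.9%. The log2 fold change was -1.66 (SE 0.33, adjusted p = 0.00448), with a 95% interval of -2.41 to -0.91. It stayed between -1.65 and -1.61 under 75th percentile scaling, normexp, the submitters' values and the mean spot intensity.

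Scn4a encodes the subunit that forms the pore of the muscle sodium channel. Its probe lies at chr11:106180635-106180694 on the minus strand (mm9). The log2 intensities were 9.21, 9.05, 8.92 and 9.13 on the WT arrays and 8.95, 8.64 and 8.95 on the AR113Q arrays. The genotypes overlapped, since WT replicate 3 lay under AR113Q replicates 1 and 3. The log2 fold change of -0.23 (SE 0.16, adjusted p = 0.27) had a 95% interval of -0.59 to 0.13, which corresponds to 66.3% to 110% of the WT level. A fall of the size seen for Scn4b lies outside this interval.

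Within each array, the log2 difference Scn4b minus Scn4a was taken relative to its WT mean. It ran from -0.21 to 0.30 on the WT arrays and was -2.15, -1.48 and -0.67 on AR113Q replicates 1 to 3, so relative to the pore subunit the accessory subunit was lower on every AR113Q array than on any WT array. This pair was chosen after its values were seen, and the difference is given without a test.

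Atp1b1 encodes the beta1 subunit of the sodium pump, the beta subunit with the broadest expression. The probe lies at chr1:166368263-166368322 on the minus strand (mm9). Its log2 intensity was 9.996, 11.54, 11.43 and 10.78 in WT replicates 1 to 4 and 7.30, 7.96 and 10.11 in AR113Q replicates 1 to 3. AR113Q replicate 3 was above WT replicate 1, so the genotypes overlapped, and the WT arrays already varied more for Atp1b1 than for any other member. Means were 10.94 ± 0.71 for WT (SD, n = 4) and 8.46 ± 1.47 for AR113Q (SD, n = 3). The log2 fold change was -2.48 (SE 0.65, adjusted p = 0.0164), and its 95% interval of -3.98 to -0.98 was the widest of the 6. The call was lost without AR113Q replicate 1 (log2 fold change -1.90, adjusted p = 0.0614), without AR113Q replicate 2 (-2.23, adjusted p = 0.0594) and with no filter on dim probes (-2.48, adjusted p = 0.0513). Over all alternatives the adjusted p of Atp1b1 ran from 0.00185 to 0.0614. Atp1b1 overlaps Nme7 in the GRCm38.p6 gene table.

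Atp1b2 encodes the beta2 subunit, which pairs with the pump in glycolytic fibers and in glia. Its probe lies at chr11:69413253-69413312 on the minus strand (mm9). The WT arrays gave 11.16, 11.14, 11.15 and 11.41, and the AR113Q arrays 9.37, 10.53 and 9.55. No array of one genotype reached the other, the gap being 0.61, and it was AR113Q replicate 2 that came closest to WT. The AR113Q arrays stood at 27.8%, 62.1% and 31.4% of the WT mean. The log2 fold change was -1.40 (SE 0.28, adjusted p = 0.00453), with a 95% interval of -2.03 to -0.77, and with array weights it was -1.06.

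Fxyd1 encodes phospholemman, which holds the pump back until it is phosphorylated. Its probe lies at chr7:31836699-31836758 on the minus strand (mm9), and Fxyd1 overlaps Gm38984 in the GRCm38.p6 gene table. The log2 intensities were 15.97, 15.59, 16.03 and 15.71 in WT and 15.92, 16.17 and 15.96 in AR113Q. Here too the genotypes overlapped, with a log2 fold change of 0.19 (SE 0.17, adjusted p = 0.40). The 95% interval of -0.20 to 0.58 corresponds to 86.9% to 149% of WT. The estimate turned to -0.067 with 75th percentile scaling, so no direction is given.

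Of the 6 members, 3 had no overlap between the genotypes, a pattern shown by 49.6% of all kept probes. The slide could be weighed in part. The arrays lay on 5 slides, of which 1 held both genotypes, namely WT replicate 2 and AR113Q replicate 1. On that slide AR113Q minus WT was -3.51 for Clcn1, -2.29 for Scn4b, -4.24 for Atp1b1, -1.77 for Atp1b2, -0.10 for Scn4a and 0.32 for Fxyd1. The 4 called members were thus lower within the slide as well, by more than the estimate over all arrays, in a single pair of mice with no spread of its own. With slide as a fixed effect these are the estimates, the adjusted p of the 4 was 0.0510 to 0.0571, and 0 members and 0 probes of the whole array were called, although 7927 probes had an unadjusted p of at most 0.05. Only slide 4, with WT replicates 3 and 4, repeats a genotype, so the p-values of that fit carry no spread between AR113Q mice. With slide as a random block 4 members were called.

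**Figure D2:**
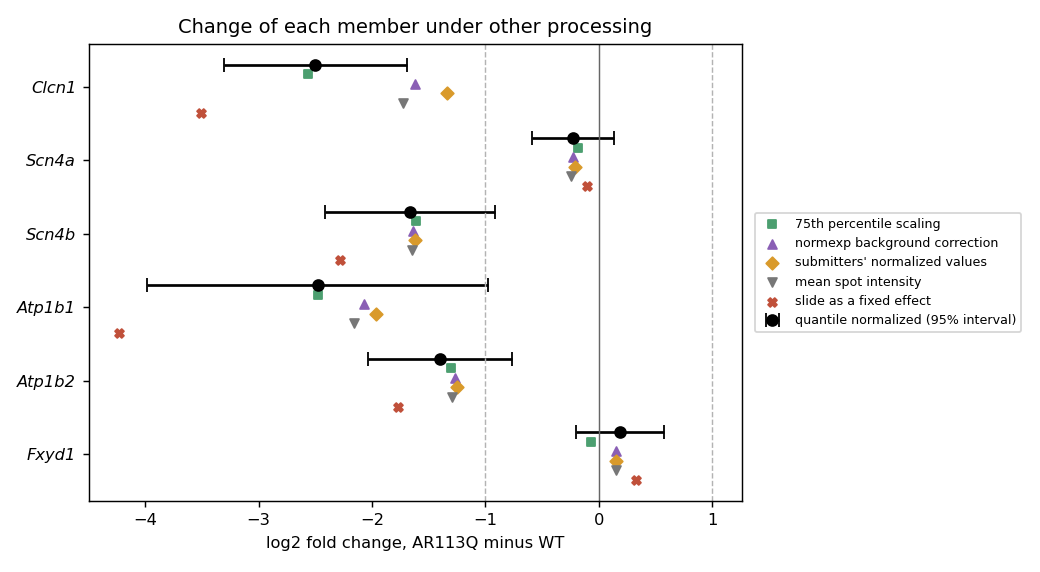
Log2 fold change (AR113Q minus WT) of each member, with its 95% interval for the quantile-normalized values in black and the estimate under 5 other settings as coloured symbols. Dashed lines mark the fold change threshold in each direction. Clcn1 moves most with the reading of the spots (-2.50 to -1.34), and slide as a fixed effect gives the lowest value for all 4 called members.

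The AR113Q mice did not rank alike for every member. AR113Q replicate 1 had the lowest value of Clcn1, Scn4b, Atp1b1 and Atp1b2. Replicate 3 was the closest to WT for Clcn1, Scn4b and Atp1b1, and replicate 2 for Atp1b2. AR113Q replicate 3 kept 56.3% of the WT mean of Atp1b1, while replicates 1 and 2 stood at 8.05% and 12.7%. For Clcn1 the 3 arrays stood at 8.89%, 23.5% and 26.5%. The root mean square of the log2 difference between centred values over the 7 arrays, which is small where 2 genes run in parallel, was 0.52 for Clcn1 and Scn4b, 0.61 for Scn4b and Atp1b2, and 1.15 for Atp1b1 and Atp1b2. This measure also rises where 2 genes change by different amounts, and the log2 fold changes of Atp1b1 and Atp1b2 were -2.48 and -1.40. Of all pairs of members it was smallest, at 0.31, for Scn4a and Fxyd1, neither of which was called.

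**Figure D3:**
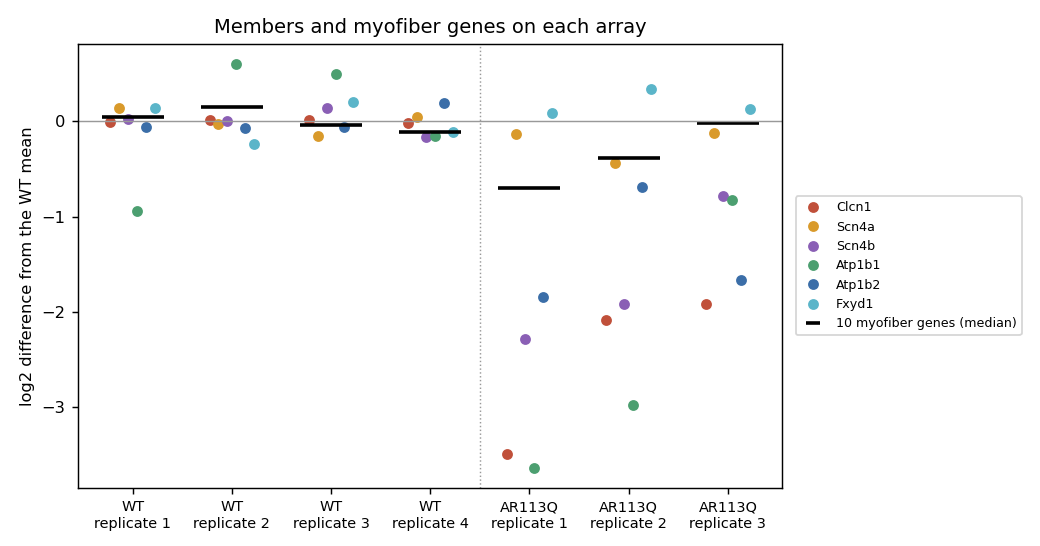
Log2 difference of each member from its WT mean on every array, with the median of 10 myofiber genes as a black bar. The 4 called members lie between 0.69 and 3.64 under the WT mean on the AR113Q arrays, while the myofiber median is -0.70, -0.39 and -0.02 there.

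The same measure was used to name, for each member, the 2 genes whose pattern over the 7 arrays was most like it among 16525 named probes well above background on all arrays. For Clcn1 these were Fam131a (root mean square difference 0.10) and Tmod4 (0.13), a tropomodulin that caps thin filaments in muscle. For Scn4b they were Slc25a35 (0.09), a mitochondrial carrier, and Calml4 (0.10). Atp1b1 was least closely matched, by Perm1 (0.33), a regulator of muscle oxidative metabolism, and Lmod3 (0.39), a leiomodin of the thin filament. Atp1b2 ran with Ppid (0.12), a cyclophilin, and Vkorc1 (0.14), the vitamin K epoxide reductase. For the members that were not called, the nearest patterns were Mcc and Clec16a for Scn4a (0.05 and 0.06) and Lyrm2 and Rpl30 for Fxyd1 (both 0.07). Likeness over 7 arrays in 2 genotypes mostly restates a similar fold change, and the 8 genes nearest to the called members had log2 fold changes of -2.49 to -1.40.

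The wider family of pump subunits, channels and partners was taken from 8 lists of 56 genes, members included, of which 49 had a kept probe. With 1 probe a gene, the brightest, 12 of the 49 were called, 9 lower and 3 higher. Without Atp1a4, whose probe was above background in WT alone, 11 of 48 were called, 8 lower and 3 higher. Over all 15832 genes represented this way 24.8% were called, 13.5% lower and 11.3% higher, so the family as a whole was called about as often as the array. The median log2 fold change was -0.24 over the 49 genes, -0.19 over the 43 that are not members, and -0.01 over all genes.

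Among the pump catalytic subunits, Atp1a4, known from sperm, was well above background on 4 of 4 WT arrays and on none of the AR113Q arrays, and was at least 3.83-fold higher in WT, the AR113Q level being a bound set by the dimmest detected probes. The Atp1a4 probe passed the filter through the WT arrays alone, so the bound is a description with no test.

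Of the 4 beta subunit genes 3 were called lower, among them the members Atp1b1 and Atp1b2, where 13.5% of all genes were called lower. Of the 2 that are not members, 1 was called lower. Besides the members, Atp1b4, whose muscle protein lies largely in the inner nuclear membrane and not in the pump, had log2 intensities of 6.43, 6.37, 6.67 and 6.50 in WT and 1.84, 4.29 and 5.03 in AR113Q, where 2 of 3 arrays measured it above background. Its log2 fold change was -2.77 (SE 0.64, adjusted p = 0.00954). Atp1b3, the beta3 subunit, ran from 8.95 to 9.28 in WT and from 9.14 to 9.61 in AR113Q and was not called (log2 fold change 0.29, adjusted p = 0.20). Relative to Atp1b3 on the same array, Atp1b1 shifted by -2.77 and Atp1b2 by -1.69 between the genotypes, a pair of comparisons chosen after the values were seen and not tested.

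Of 6 FXYD genes tested 2 were called, 1 in each direction. Fxyd2, the gamma subunit best known from kidney, fell by 2.16 on the log2 scale (SE 0.24, adjusted p = 0.000446), and its other probe fell by 1.98. The WT arrays of the brighter Fxyd2 probe ran from 9.23 to 10.22 and the AR113Q arrays from 7.32 to 7.71, without overlap. Fxyd7 rose by 1.09 (adjusted p = 0.0127), but only 1 of 4 WT and 2 of 3 AR113Q arrays were well above background. Fxyd3, Fxyd5 and Fxyd6 were not called, with log2 fold changes of -0.27 to 0.23.

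By its brightest kept probe, no sodium channel pore gene was called among 6 tested, with log2 fold changes from -0.36 for Scn8a to 0.85 for Scn7a, and Scn2a and Scn3a between these. A second probe of Scn2a, above background on 3 WT and 0 AR113Q arrays, was at least 2.46-fold higher in WT, with the same kind of bound as for Atp1a4 and likewise kept through the WT arrays alone. The brightest Scn2a probe was not called (-0.19), and no direction is given for the gene. Of the 4 auxiliary subunits only Scn4b was called. Scn2b (log2 fold change -0.60, adjusted p = 0.081) and Scn3b (0.02, adjusted p = 0.92) were not called.

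In the CLC family, Clcn1 was not alone in being lower. Clcn3, an endosomal chloride and proton exchanger, fell by 1.08 (SE 0.17, adjusted p = 0.00182), from 11.58 to 12.03 on the WT arrays to 10.60 to 10.87 on the AR113Q arrays. Its other probe gave a log2 fold change of -0.82 and was not called. Clcn2, the other chloride channel of the cell surface with a wide distribution, had a log2 fold change of 0.85 (adjusted p = 0.0259), short of the threshold, and Clcn4, Clcn5, Clcn6 and Clcn7 were not called.

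Among transporters that use the sodium gradient, the sodium and calcium exchanger genes Slc8a1 (log2 fold change -1.13, adjusted p = 0.079) and Slc8a2 (-1.12, adjusted p = 0.070) missed the adjusted p. Each was well above background on 4 of 4 WT arrays but on 1 of 3 AR113Q arrays, so the AR113Q levels lie near the floor. Other Slc8a1 probes were well above background on 0 arrays. Among 8 tested genes that anchor or modulate these channels, Fgf11, a homologue of the fibroblast growth factors that binds sodium channels, was the only one called by its brightest probe (-1.12, SE 0.27, adjusted p = 0.0116). A dimmer Fgf11 probe, above background on 3 arrays, had a log2 fold change of 0.82 and was not called (adjusted p = 0.34).

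**Figure D4:**
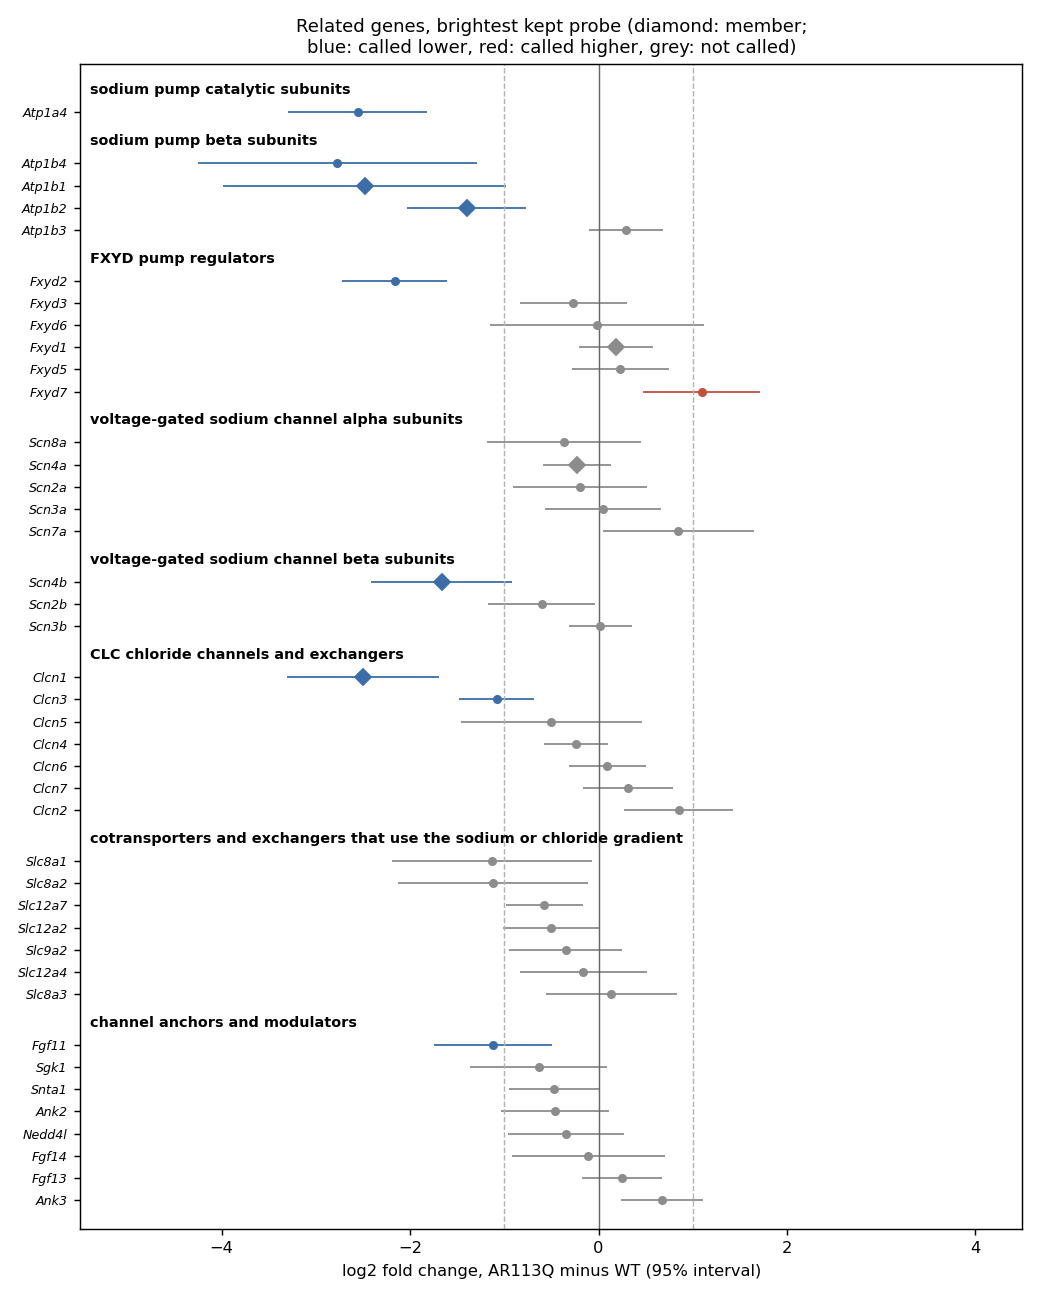
Log2 fold change (AR113Q minus WT) with 95% interval for 41 of the 49 tested genes of the 8 lists, each by its brightest kept probe. Diamonds are the members, blue marks genes called lower, red genes called higher and grey genes not called, and dashed lines mark the fold change threshold. In the beta subunit list 3 of 4 genes are called lower, among them the members Atp1b1 and Atp1b2. No sodium channel pore gene shown is called by this probe.

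The labelled tissue was checked on 10 myofiber genes, among them Ckm, Acta1, Ttn and Myh4, which were well above background on all 7 arrays. None of the 10 was called, with log2 fold changes from -0.80 to 0.41. Ckm (-0.80, adjusted p = 0.0101) and Ttn (-0.66, adjusted p = 0.0264) missed only the fold change threshold, and for both the genotypes did not overlap. No other gene of this list had an adjusted p of at most 0.05. Myh2 varied most, from 11.27 to 14.82 in WT and from 12.10 to 15.92 in AR113Q. The summed level of the 10 genes (log2) ran from 19.61 to 19.80 in WT and from 19.11 to 19.76 in AR113Q. The 2 lowest arrays were AR113Q replicates 1 and 2.

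Markers of other cell types were counted beside the members, against 24.8% of all genes called. Of 5 tested adipocyte markers 4 were lower, with a summed level of 14.99 to 15.98 in WT and 13.42 to 14.26 in AR113Q, and Lep was well above background on 3 arrays. Of 4 fibroblast markers 2 were lower (Col1a1 and Lum), with summed levels of 15.96 to 16.22 in WT and 16.12 to 16.55 in AR113Q, or 12.95 to 13.26 and 9.83 to 11.56 without Dcn, and Tcf21 was above background on none. Of 5 macrophage markers 2 were lower and 1 higher, with 12.59 to 13.39 in WT and 12.24 to 12.58 in AR113Q, while without Csf1r the ranges overlapped (10.89 to 11.84 and 11.36 to 11.44). Of 8 Schwann cell and nerve markers 3 were lower, S100b and Cnp among them, with 11.32 to 12.42 in WT and 10.69 to 11.23 in AR113Q. Of 5 tested genes of denervated muscle 2 were higher, Chrna1 by 1.77 and Musk by 1.62, and the others were not, with log2 fold changes of 0.20 for Chrnd, -0.20 for Myog and -0.68 for Ncam1 (adjusted p = 0.041) and a list median of 0.20. Their summed level was 10.52 to 11.03 in WT and 11.93 to 12.30 in AR113Q, or 9.33 to 9.86 and 10.22 to 10.45 without Chrna1, while Chrng was above background on 1 array. Of the endothelial list 0 of 6 genes were called, and of the smooth muscle and pericyte list 1 of 6 (Cspg4, lower). None of 3 tested erythrocyte genes was called, with a summed level of 15.44 to 17.71 in WT and 15.46 to 15.82 in AR113Q. The part of these differences in the members' values was not tested.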

How the data were processed

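Quadriceps RNA was hybridized to 1 single-colour array per mouse (4 WT, 3 AR113Q). The authors deposited scanner files from Agilent Feature Extraction (10.7.3.1 in the submitters' processing notes), with 1 intensity per spot after subtraction of background and a spatial detrending, but before any normalization across arrays. They also deposited a table of normalized log2 values for 18592 probes, used here as an alternative.

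Spots marked as outliers were left out, log2 intensities of 43020 spots that are not controls were quantile normalized, and spots of a probe were averaged. A probe was kept where 3 or more of the 7 arrays showed it well above background (21002 of 39429). Subtraction spreads the log2 values of dim spots. Between 47.6% and 55.9% of probes were well above background on each array, 0 spots were saturated, and the number of arrays limits the precision.

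Genotypes were compared per probe with limma 3.58.1 in R 4.3.3 (lmFit, eBayes), Benjamini-Hochberg adjusted over all kept probes, and tested on simulated data. Gene names came through RefSeq accessions of the GRCm38.p6 table (28330 probes) or else the scanner files. Promoter windows are RefSeq sequence of GRCm38.p6, with 5 of 6 members matched, and probe positions are on mm9.

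The genes named are every member probe, the tested genes of the related lists, and the 2 genes most like each member. The members and lists were chosen with earlier results of these data known. Some measured genes of the related lists are not reported here, and counts over lists include them.

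Alternatives were 75th percentile scaling, normexp (offset 50), the deposited log2 values, other filters on dim probes, 1 probe per gene, outlier spots kept, an intensity trend, array weights, slide as a random or fixed effect, a replicate block, no fold change threshold, and each array left out. The mean spot intensity was added after the data were examined.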

Additional observations from a re-analysis of the deposited data

Results flagged for a closer look

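Among 61 genes (the tested related genes, members included, and the genes most like each member), 2 had a WT array far from the other 3. Atp1b2 in WT replicate 4 had a log2 intensity of 11.41, where the other WT arrays lay between 11.14 and 11.16. It was the highest value of Atp1b2, and leaving out any 1 array kept Atp1b2 called. Fam131a, the gene most like Clcn1, had 13.04 in WT replicate 3 against 12.78 to 12.81 in the other WT arrays. Chance alone flags about 1 in 20 groups of this kind.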

How the results depend on the processing

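The 4 calls among the members held under most alternatives, and the exceptions concern the slide and Atp1b1. With slide as a fixed effect 0 members and 0 related genes were called, at larger estimates (Clcn1 -3.51, Scn4b -2.29, Atp1b1 -4.24, Atp1b2 -1.77). That fit keeps few residual degrees of freedom, and its spread comes from WT replicates 3 and 4 alone. Atp1b1 was not called with no filter on dim probes (-2.48), where more probes enter the adjustment. Fxyd1 turned to -0.067 with 75th percentile scaling, which moved the median of all kept probes from 0.01 to -0.05.

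Without 1 array at a time, 3 to 4 members and 10 to 13 related genes were called. The log2 fold change then ran from -2.79 to -2.002 for Clcn1, from -2.10 to -1.35 for Scn4b, from -3.30 to -1.90 for Atp1b1 and from -1.76 to -1.18 for Atp1b2. Only Atp1b1 lost its call, without AR113Q replicate 1 (-1.90) and without AR113Q replicate 2 (-2.23). It ran from -0.28 to -0.13 for Scn4a and from 0.11 to 0.26 for Fxyd1.

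Of the related genes 7 were called in place of 12 with normexp, with the submitters' values (which hold 45 of the 49 probes) and with the mean spot intensity, the cause of which was not tested. The share of all probes called fell as well, from 24.8% to 9.94%, 8.56% and 10.8%. Replicate numbers gave no clear pairing of the mice: deviations of arrays with the same number correlated at 0.04, -0.02 and 0.15. So few values cannot exclude a pairing. With a replicate block 4 members and 13 related genes were called (Clcn1 -2.51, Scn4b -1.72, Atp1b1 -2.53, Atp1b2 -1.34).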

Other observations

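Ank3 encodes ankyrin-G, which anchors sodium channels at the neuromuscular junction, and its 3 probes disagreed. Their log2 fold changes were 0.68 for the brightest, 2.01 and -1.37 for the others. The brightest did not reach the fold change threshold, and the other two were called in opposite directions, so no direction is given for the gene.

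The local background around the member spots lay between 29 and 42 on every array. At these levels the background-subtracted Clcn1 intensity of AR113Q replicate 1 was 63.5, while the mean intensity of the same spot was 137. The Fxyd1 spot had background-subtracted intensities of 45370 to 84248 and was saturated on none of the arrays.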
